A study of Mus musculus with 12 samples.

Results

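The p53 target genes are a set of 10 genes that the transcription factor p53 is known to switch on: Cdkn1a, Mdm2, Ccng1, Phlda3, Trp53inp1, Plk2, Bax, Sesn1, Btg2 and Zmat3. They were picked by symbol from a deposited table of FPKM (fragments scaled by gene length and library depth), and all 10 were found among its 25553 genes. The values come from RNA sequencing of whole kidneys of 12 wild-type (WT) mice in 4 groups of 3. Preconditioned RIRI mice (HPC, hypoxic preconditioning) had spent 2, 4 and 8 h in a chamber at 8% oxygen on days 1, 2 and 3 before renal ischemia-reperfusion injury (RIRI), in which both renal pedicles were clamped for 45 min and the kidneys collected after 12 h of reperfusion. Normoxic RIRI mice had the same clamping and reperfusion without the chamber. Preconditioned sham mice had the chamber without clamping, and normoxic sham mice had neither. Strain, age and sex are not stated in the labels. All kidneys were sampled once, the RIRI kidneys at the end of reperfusion, and no sampling time is given for the sham kidneys.

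p53 is a protein that stressed cells accumulate after DNA damage, nucleolar stress or oxygen and nutrient shortage, chiefly because its destruction by Mdm2 stops. It then raises genes that halt the cell cycle, trigger or restrain cell death, repair DNA, curb growth signalling, and feed back on p53 itself. In the kidney, p53 and Cdkn1a in proximal tubule cells are well-studied parts of the response to ischemia. Messenger RNA was measured here, so neither the amount nor the activity of the p53 protein is known from these values.

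Where the RefSeq promoter table held a member, the bases just before its start site were searched for half-sites of the p53 response element. The table (assembly GRCm38, the mm10 build) matched 8 of the 10 members with 10 promoters, each covering 250 bases before to 50 after a start. Trp53inp1 and Zmat3 had no entry. The 10-base half-site, or unit, of the p53 response element was found in promoters of 5 members. These are printed below in lower case with the unit in capitals, 5′ to 3′ on the gene's strand. A full element holds 2 units, whereas the printed Mdm2, Ccng1, Bax and Sesn1 promoters held 1 exact match each. Near matches were not searched for and stay in lower case. The unit occurs in 8.36% of all 32851 promoters of this length. The unit is palindromic, so a match on one strand is a match on the other.
Cdkn1a, chr17:29090881-29090962, plus strand: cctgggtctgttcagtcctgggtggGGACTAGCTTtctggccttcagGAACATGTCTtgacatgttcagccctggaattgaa
Mdm2, chr10:117710910-117710969, minus strand: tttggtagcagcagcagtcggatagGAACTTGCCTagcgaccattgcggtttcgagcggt
Ccng1, chr11:40755437-40755496, minus strand: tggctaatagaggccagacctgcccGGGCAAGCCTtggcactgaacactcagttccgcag
Bax, chr7:45467065-45467124, minus strand: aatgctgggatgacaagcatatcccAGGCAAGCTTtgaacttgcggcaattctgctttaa
Sesn1, chr10:41887241-41887300, plus strand: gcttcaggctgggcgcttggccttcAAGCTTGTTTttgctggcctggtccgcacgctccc

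Cdkn1a is the member with 2 exact matches, and they lie before the more upstream of its 2 RefSeq starts, which are 2790 bases apart. These 2 units do not adjoin each other. The bases directly after the second, tgacatgttc, come near the unit but are no exact match, so they are in lower case. Which of these stretches form a full element was not tested. Btg2 and Plk2 had no p53 unit in this window but held the cyclic AMP response motif TGACGTCA, which is its own reverse complement and occurs in 1.79% of all promoters. They are printed as the members holding it, and both were lower in preconditioned than in normoxic RIRI kidneys. Cdkn1a and Mdm2 were also lower there but lacked it, and Trp53inp1, lower too, had no promoter entry. The motif is in capitals.
Btg2, chr1:134079289-134079346, minus strand: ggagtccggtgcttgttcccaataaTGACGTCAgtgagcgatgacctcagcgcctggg
Plk2, chr13:110394957-110395014, plus strand: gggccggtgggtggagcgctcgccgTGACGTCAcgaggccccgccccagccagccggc
The AP-1 motif TGANTCA and the TATA box TATAAA were found in 0 of the 10 member promoters, against 7.81% and 13.6% of all promoters. A match describes letters in a window and shows no binding.

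Between 32900491 and 35473156 reads per library could be recovered from the FPKM steps, and 11301 to 11804 genes per library reached an FPKM of 1. Every member was well covered, from 199 to 735 reads per library for Phlda3, the least covered, up to 323 to 16888 for Cdkn1a. Kidney markers were abundant in all libraries: the summed FPKM of 12 proximal tubule markers was 15560 to 21030 in preconditioned RIRI, 18330 to 24150 in normoxic RIRI, 32140 to 36960 in preconditioned sham and 47280 to 52640 in normoxic sham kidneys. Such a sum follows its most abundant genes. Between the sham groups 11 of the 12 markers did not pass the test described below, 1 was lower, and their median log2 fold change was 0.008. In whole-tissue RNA, fewer cells of a type and less RNA per cell cannot be told apart. Differences below are log2 fold changes of FPKM + 1 with their standard error (SE), tested with limma across the 12357 genes that reached an FPKM of 1 in at least 3 libraries. All 10 members passed that filter, and genes with a Benjamini-Hochberg adjusted p under 0.05 are said to be called. Bax and Sesn1 each overlap a neighbouring gene model on the same strand, and Cdkn1a overlaps a model on the opposite strand. Nothing says whether reads were counted by strand, which bears on the Cdkn1a overlap. Reads in all these stretches cannot be assigned with certainty.

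Injury without preconditioning raised 8 of the 10 members and lowered 1. Cdkn1a, Btg2, Phlda3, Plk2, Bax, Mdm2, Trp53inp1 and Zmat3 were higher in normoxic RIRI than in normoxic sham kidneys, Sesn1 was lower, and Ccng1 did not pass the test. The FPKM ranges of these 9 genes did not overlap between the 2 groups. Injury changed most of the transcriptome at this time: 71.7% of all genes tested were called, 41.6% higher and 30.1% lower, and 74.3% had ranges that did not overlap, so a count of 9 of 10 is to be read against that. The median log2 fold change was 0.94 over the members and 0.10 over all genes.

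In preconditioned mice, injury raised 6 members and lowered 1 against preconditioned sham. Cdkn1a, Phlda3, Bax, Zmat3, Mdm2 and Ccng1 were higher and Sesn1 lower, while Plk2, Btg2 and Trp53inp1 did not pass. Here 52.4% of all genes were called, 33% higher and 19.4% lower, and the ranges of 63.3% did not overlap, which held for 7 members. The calls there were 63% higher, but 52.3% under median-ratio rescaling and 51.1% under quantile normalization. Between the RIRI groups, 5 members were lower with preconditioning (Cdkn1a, Btg2, Trp53inp1, Plk2 and Mdm2) and 1, Ccng1, was higher. Of all genes, 42.1% were called in that comparison, 17.4% lower and 24.7% higher, and 47.7% had ranges that did not overlap, which held for the same 6 members. Of the calls, 58.7% were higher with preconditioning, but 44.6% under median-ratio rescaling and 48.2% under quantile normalization; none of the 6 member calls was lost under either. This comparison shares the normoxic RIRI mice with that of normoxic RIRI against normoxic sham, so each is given below with its own values.

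**Figure D1:**
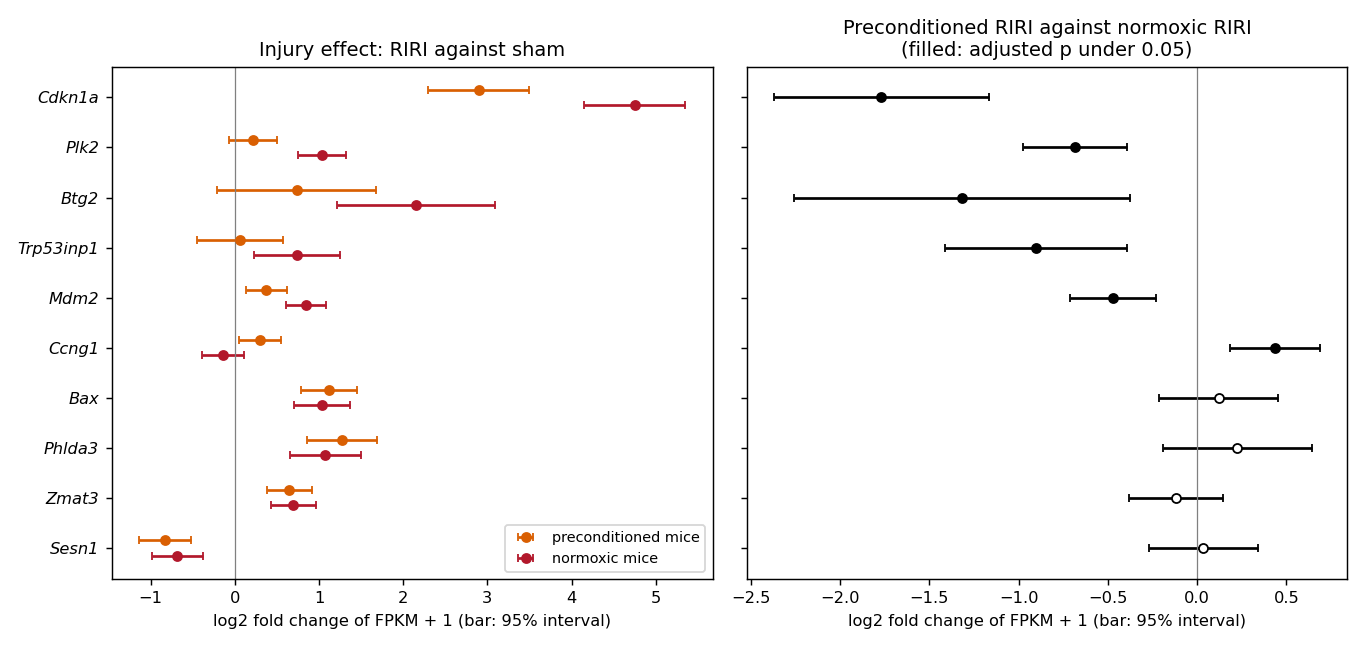
Log2 fold change of FPKM + 1 with its 95% interval for each of the 10 p53 targets: on the left RIRI over sham in preconditioned (orange) and normoxic (red) mice, on the right preconditioned over normoxic RIRI (filled points, adjusted p under 0.05; open points, not called). Cdkn1a had the largest injury effect among the members in both preconditioned (2.90) and normoxic (4.75) mice, and Bax, Phlda3, Zmat3 and Sesn1 are open on the right.

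Cdkn1a encodes p21, the inhibitor of cyclin-dependent kinases that holds damaged cells out of the cycle. Its FPKM was 54.0, 33.5 and 72.1 in preconditioned RIRI, 130, 248 and 167 in normoxic RIRI, 7.67, 5.19 and 5.27 in preconditioned sham and 4.70, 5.48 and 6.64 in normoxic sham kidneys. The RIRI groups overlapped neither each other nor the sham groups, and the sham groups overlapped. Its log2 fold change was 4.75 ± 0.27 (adjusted p = 4.17e-08) in normoxic RIRI over normoxic sham, the 17th highest of all genes tested, and 2.90 ± 0.27 (adjusted p = 7.54e-06) in preconditioned RIRI over preconditioned sham. Preconditioned RIRI kidneys had less of it than normoxic RIRI kidneys, with a log2 fold change of -1.77 ± 0.27 (adjusted p = 0.00053). The difference between the injury effects, preconditioned minus normoxic, was itself called at -1.85 ± 0.39 (adjusted p = 0.00679), so the effect in preconditioned mice was 61% of that in normoxic mice on the log2 scale. Each of these Cdkn1a calls held with any library left out.

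Plk2, a polo-like kinase that p53 raises at the S-phase checkpoint, had 5.69, 3.87 and 4.87 FPKM in preconditioned RIRI, 7.25, 9.10 and 8.53 in normoxic RIRI, 3.74, 4.84 and 3.40 in preconditioned sham and 3.27, 3.58 and 3.71 in normoxic sham kidneys. Only the normoxic RIRI kidneys stood clear of the other groups. Its log2 fold change was 1.04 ± 0.13 (adjusted p = 2.23e-05) in normoxic RIRI over normoxic sham and -0.68 ± 0.13 (adjusted p = 0.00194) in preconditioned over normoxic RIRI. In preconditioned RIRI over preconditioned sham it was 0.22 ± 0.13 (adjusted p = 0.188), or 0.34 (adjusted p = 0.0477) without preconditioned RIRI replicate 2. The injury effects differed by -0.82 ± 0.19 (adjusted p = 0.0101).

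Mdm2 is the ubiquitin ligase that marks p53 for destruction and is itself a p53 target, which closes a negative feedback loop. It had 7.23, 5.95 and 7.95 FPKM in preconditioned RIRI, 9.79, 10.2 and 10.2 in normoxic RIRI, 5.82, 4.78 and 4.93 in preconditioned sham and 4.81, 4.72 and 6.004 in normoxic sham kidneys. The normoxic RIRI kidneys were close to each other and above every other kidney. Mdm2 was higher in normoxic RIRI than in normoxic sham by 0.85 ± 0.11 (adjusted p = 2.36e-05) and lower in preconditioned than in normoxic RIRI, at -0.47 ± 0.11 (adjusted p = 0.00543). It was higher in preconditioned RIRI than in preconditioned sham by 0.38 ± 0.11 (adjusted p = 0.0127), a call lost without preconditioned RIRI replicate 3 (0.0573), without preconditioned sham replicate 2 (0.0517) and under quantile normalization (0.0682). The difference of the injury effects, -0.47 ± 0.15, passed narrowly (adjusted p = 0.0452) and was lost on leaving out 10 of the 12 libraries, all but preconditioned RIRI replicate 3 and normoxic sham replicate 3, with adjusted p of 0.0505 to 0.11.

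Btg2, an antiproliferative co-regulator of messenger RNA decay and also a fast stress-response gene, had 19.3, 13.4 and 20.1 FPKM in preconditioned RIRI, 26.6, 79.2 and 42.3 in normoxic RIRI, 8.52, 17.0 and 6.81 in preconditioned sham and 6.47, 7.01 and 17.2 in normoxic sham kidneys. In normoxic RIRI and in both sham groups it varied more for its level than any other member, and 1 kidney of each sham group lay within the preconditioned RIRI range. Its log2 fold change was 2.15 ± 0.43 (adjusted p = 0.000728) in normoxic RIRI over normoxic sham. In preconditioned over normoxic RIRI it was -1.32 ± 0.43 (adjusted p = 0.0284), and this call was lost without preconditioned RIRI replicate 2 (-1.14, adjusted p = 0.0971), normoxic RIRI replicate 2 (-0.92, adjusted p = 0.115) or normoxic RIRI replicate 3 (-1.36, adjusted p = 0.0562), and with no filter on low genes (0.08). In preconditioned RIRI over preconditioned sham Btg2 differed by 0.73 ± 0.43 (adjusted p = 0.172). The injury effects differed by -1.42 ± 0.61 (adjusted p = 0.11), which passed without normoxic RIRI replicate 1 (-1.79, adjusted p = 0.0431) or normoxic sham replicate 3 (-1.83, adjusted p = 0.0466).

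Immediate early genes, which respond to stress and growth signals within minutes, were highest in normoxic RIRI kidneys, as Btg2 was. The summed FPKM of 14 of them was 302, 205 and 284 in preconditioned RIRI, 465, 729 and 645 in normoxic RIRI, 110, 214 and 68.7 in preconditioned sham and 78.2, 103 and 232 in normoxic sham kidneys, replicates in order. In both sham groups and in normoxic RIRI, the kidney with the highest Btg2 of its group also had the highest sum. In preconditioned RIRI, replicate 1 had the highest sum and replicate 3 the highest Btg2. Of the 13 members of that list tested, 10 rose in normoxic RIRI over normoxic sham, where 41.6% of all genes were called higher. In preconditioned against normoxic RIRI 6 fell, where 17.4% of all genes were called lower. The part of the immediate early genes in the Btg2 result was not tested.

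**Figure D2:**
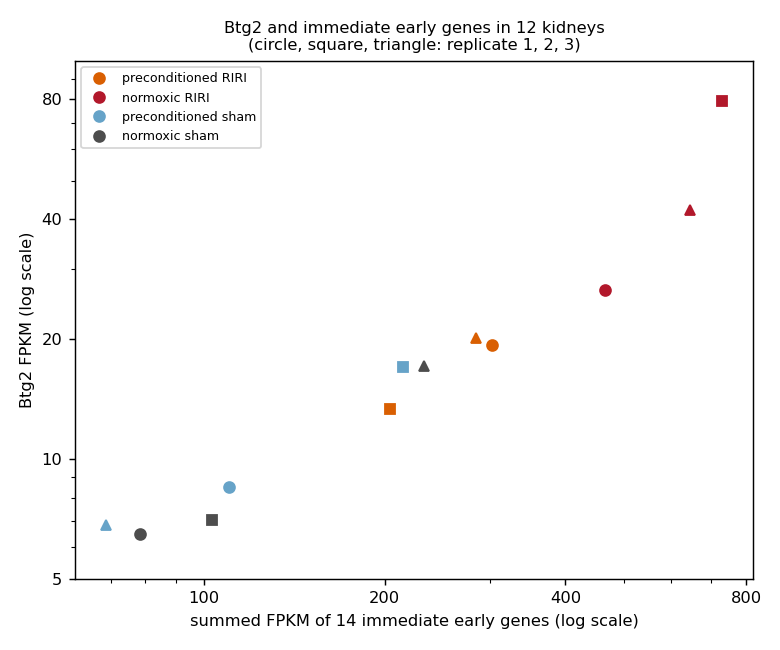
Btg2 FPKM against the summed FPKM of 14 immediate early genes in each of the 12 kidneys (both axes on a log scale; colours, groups; symbols, replicates). The normoxic RIRI kidneys lie at the top right, and preconditioned sham replicate 2 (17.0 FPKM) and normoxic sham replicate 3 (17.2 FPKM) lie beside the preconditioned RIRI kidneys.

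Trp53inp1, a nuclear protein that strengthens p53 signalling and takes part in autophagy, had 3.75, 5.27 and 5.42 FPKM in preconditioned RIRI, 6.74, 15.6 and 8.71 in normoxic RIRI, 5.02, 3.94 and 4.60 in preconditioned sham and 4.42, 6.34 and 5.77 in normoxic sham kidneys. The preconditioned RIRI kidneys lay within the combined sham range, apart from 1 just under it. Its log2 fold change was 0.74 ± 0.23 (adjusted p = 0.0135) in normoxic RIRI over normoxic sham and -0.90 ± 0.23 (adjusted p = 0.00961) in preconditioned over normoxic RIRI. Normoxic RIRI replicate 2 carried much of both: without it they were 0.42 (adjusted p = 0.0419) and -0.59 (adjusted p = 0.0203). The first call was lost without normoxic sham replicate 1 (0.61, adjusted p = 0.0573) and under quantile normalization (0.57, adjusted p = 0.0511). In preconditioned RIRI over preconditioned sham, Trp53inp1 differed by 0.07 (adjusted p = 0.825). The injury effects differed by -0.67 ± 0.33 (adjusted p = 0.16), or by -0.91 (adjusted p = 0.0405) without normoxic RIRI replicate 1.

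Bax, Phlda3 and Zmat3 were raised in both injured groups and were not called between them. Bax is the pore-forming protein that opens the mitochondrial outer membrane in apoptosis. It had 89.1, 92.2 and 97.8 FPKM in preconditioned RIRI, 111, 62.8 and 88.9 in normoxic RIRI, 43.2, 39.5 and 43.7 in preconditioned sham and 42.0, 40.5 and 41.2 in normoxic sham kidneys. Every RIRI kidney was above every sham kidney, and the RIRI groups overlapped. Bax rose by 1.12 ± 0.15 (adjusted p = 9.77e-05) in preconditioned RIRI over preconditioned sham and by 1.03 ± 0.15 (adjusted p = 7.09e-05) in normoxic RIRI over normoxic sham. Preconditioned and normoxic RIRI differed by 0.12 (95% interval -0.21 to 0.45, adjusted p = 0.55).

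Phlda3, a pleckstrin-homology protein that holds back Akt survival signalling, had 12.1, 10.6 and 14.5 FPKM in preconditioned RIRI, 14.6, 7.11 and 10.7 in normoxic RIRI, 4.63, 4.08 and 4.82 in preconditioned sham and 4.02, 4.34 and 4.87 in normoxic sham kidneys. It showed the same arrangement as Bax, with normoxic RIRI replicate 2 lowest of the injured kidneys for both. It rose by 1.28 ± 0.19 (adjusted p = 0.000189) in preconditioned RIRI over preconditioned sham and by 1.08 ± 0.19 (adjusted p = 0.000295) in normoxic RIRI over normoxic sham. Preconditioned and normoxic RIRI differed by 0.23 (95% interval -0.19 to 0.64, adjusted p = 0.365), or by 0.45 (adjusted p = 0.0386) without normoxic RIRI replicate 1.

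Zmat3, a zinc-finger RNA-binding protein also called Wig1, had 5.45, 5.83 and 6.82 FPKM in preconditioned RIRI, 8.23, 6.16 and 5.65 in normoxic RIRI, 3.73, 3.48 and 3.21 in preconditioned sham and 3.78, 3.96 and 3.35 in normoxic sham kidneys. The injured kidneys were again all above the sham kidneys. It rose by 0.65 ± 0.12 (adjusted p = 0.000807) in preconditioned RIRI over preconditioned sham and by 0.70 ± 0.12 (adjusted p = 0.000237) in normoxic RIRI over normoxic sham. Preconditioned and normoxic RIRI differed by -0.12 (95% interval -0.38 to 0.14, adjusted p = 0.456). The injury effects in preconditioned mice were 109% (Bax), 118% (Phlda3) and 93.2% (Zmat3) of those in normoxic mice on the log2 scale, and no difference of the effects was called (adjusted p = 0.79, 0.624 and 0.866).

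Sesn1, a stress-induced brake on mTORC1 signalling, went the other way from the members above. It had 2.34, 3.51 and 2.99 FPKM in preconditioned RIRI, 2.17, 3.71 and 2.74 in normoxic RIRI, 5.69, 6.03 and 6.15 in preconditioned sham and 5.33, 5.44 and 4.63 in normoxic sham kidneys. Every injured kidney was below every sham kidney. It fell by 0.83 ± 0.14 (adjusted p = 0.00045) in preconditioned RIRI against preconditioned sham, and by 0.68 ± 0.14 (adjusted p = 0.000917) in normoxic RIRI against normoxic sham. The RIRI groups differed by 0.04 (95% interval -0.27 to 0.34, adjusted p = 0.859), and the injury effects by -0.15 (adjusted p = 0.62).

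Ccng1, cyclin G1, recruits a phosphatase to Mdm2 and is among the most p53-responsive genes in many tissues. It was the member not called in normoxic RIRI over normoxic sham. It had 59.4, 65.2 and 52.3 FPKM in preconditioned RIRI, 49.6, 38.0 and 42.6 in normoxic RIRI, 49.5, 49.7 and 43.4 in preconditioned sham and 42.3, 51.4 and 49.8 in normoxic sham kidneys. Only the preconditioned RIRI kidneys stood above all others. Normoxic RIRI and normoxic sham differed by -0.14 (95% interval -0.39 to 0.11, adjusted p = 0.29), while preconditioned RIRI was above normoxic RIRI by 0.44 ± 0.12 (adjusted p = 0.0109). Ccng1 was also above preconditioned sham in preconditioned RIRI, by 0.30 ± 0.12 (adjusted p = 0.0453). That last call was lost without any one of 8 libraries, with adjusted p of 0.0525 to 0.153: preconditioned RIRI replicates 1 and 2, normoxic RIRI replicate 3, all 3 preconditioned sham replicates and normoxic sham replicates 2 and 3. It was also lost with no filter (0.0874), under median-ratio rescaling (0.21, adjusted p = 0.149) and with the replicate number as a block (0.0613). The injury effects differed by 0.44 ± 0.16 (adjusted p = 0.0695), called without preconditioned RIRI replicate 3 (0.0435), without normoxic RIRI replicate 1 (0.0251) or under quantile normalization (0.0365).

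**Figure D3:**
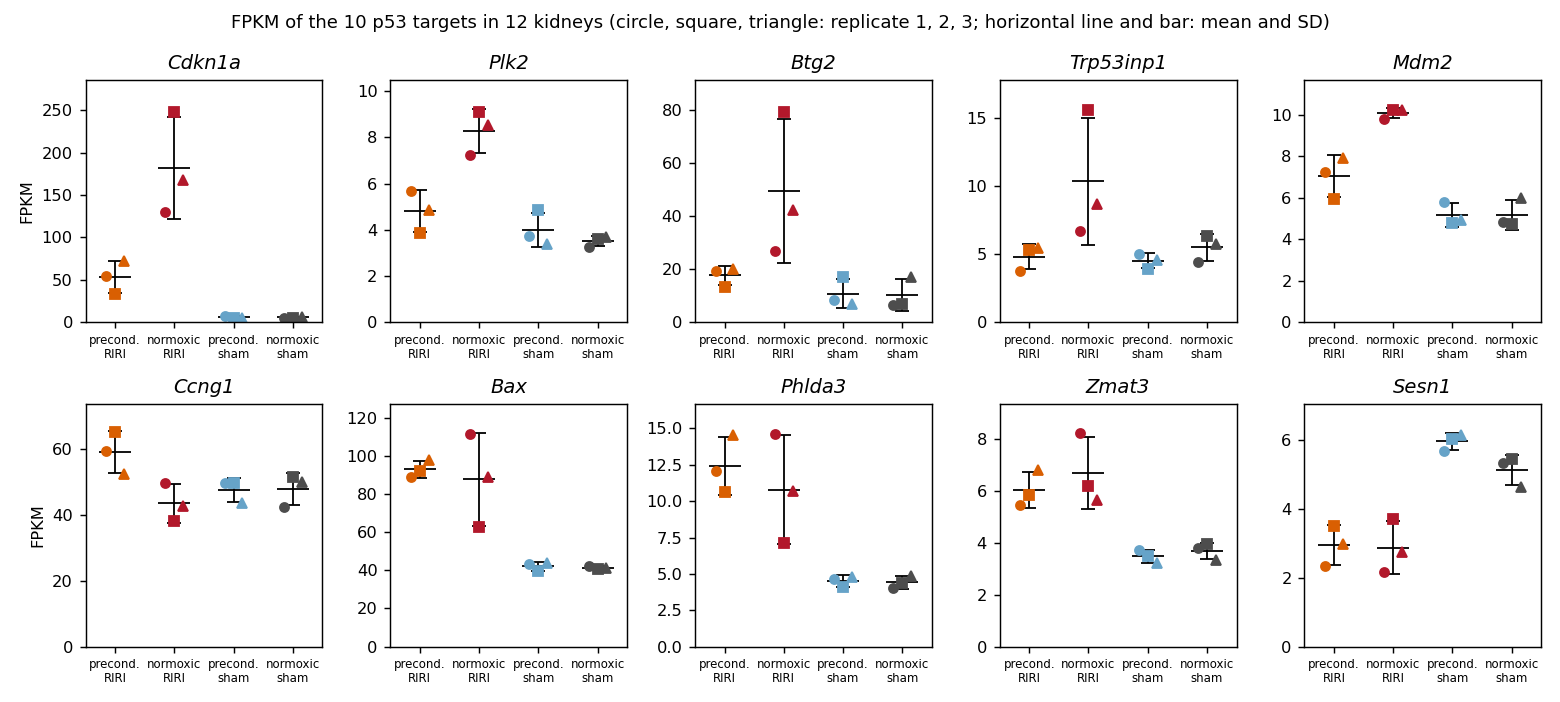
FPKM of the 10 p53 targets in each kidney, by group (symbols, replicates 1, 2 and 3; line and bars, mean and SD, n = 3). Cdkn1a, Plk2, Btg2, Trp53inp1 and Mdm2 are highest in normoxic RIRI, Bax, Phlda3 and Zmat3 are raised in both RIRI groups, Sesn1 is low in both, and Ccng1 is highest in preconditioned RIRI.

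Preconditioning by itself moved no member that the test could detect. Between preconditioned sham and normoxic sham kidneys, 0 of 10 members were called by limma, 0 had an unadjusted p under 0.05, and 0 were called by limma voom on recovered reads. Log2 fold changes ran from -0.23 for Trp53inp1 to 0.18 for Sesn1, the single member whose groups did not overlap, and the lowest unadjusted p was 0.216. Of all genes, 0.421% were called (44.2% of them higher, but 21.5% and 23.3% under median-ratio and quantile scaling) and 29.4% had ranges that did not overlap. As a whole, the difference between the injury effects was called for 3 members, all with the smaller effect in preconditioned mice (Cdkn1a, Plk2 and Mdm2), and for 23.9% of all genes, 12.6% lower and 11.3% higher.

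The members also differed from each other within kidneys. Per length, Ccng1 and Bax were the most abundant in both sham groups, with means of 47.5 ± 3.60 and 42.2 ± 2.29 FPKM in preconditioned sham and 47.8 ± 4.85 and 41.2 ± 0.79 FPKM in normoxic sham kidneys (SD, n = 3). Cdkn1a was far lower there, at 6.04 ± 1.41 FPKM in preconditioned sham and 5.61 ± 0.98 FPKM in normoxic sham, but averaged 53.2 ± 19.3 in preconditioned RIRI and led all members at 182 ± 60.2 FPKM in normoxic RIRI (SD, n = 3 each). Within the normoxic RIRI group, replicate 2 had the highest Cdkn1a, Btg2, Trp53inp1, Plk2, Sesn1 and Mdm2 and the lowest Bax, Phlda3 and Ccng1. Thus the 3 kidneys of that group did not rank alike for all members. Replicate 3 was highest of the preconditioned RIRI group for 7 members and replicate 2 lowest for 5.

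Trp53, which encodes p53, had 35.9, 30.5 and 35.6 FPKM in preconditioned RIRI, 45.4, 31.3 and 42.3 in normoxic RIRI, 14.5, 11.6 and 13.8 in preconditioned sham and 10.9, 12.6 and 11.2 in normoxic sham kidneys. Its RNA rose by 1.29 ± 0.13 (adjusted p = 1.28e-05) in preconditioned RIRI over preconditioned sham and by 1.68 ± 0.13 (adjusted p = 4.02e-07) in normoxic RIRI over normoxic sham. The RIRI groups overlapped and differed by -0.20 (95% interval -0.49 to 0.09, adjusted p = 0.236). The injury effects differed by -0.38 ± 0.19 (adjusted p = 0.155). Trp53 thus kept the arrangement of Bax and Phlda3, with both injured groups clear of both sham groups.

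Mdm4, the Mdm2 relative that masks the activation domain of p53, was higher in normoxic RIRI than in normoxic sham by 0.25 ± 0.08 (adjusted p = 0.012). It did not pass when normoxic RIRI replicate 3 or normoxic sham replicate 2 was left out, or under either rescaling (0.10 under quantile normalization, adjusted p = 0.261). The RIRI groups differed for Mdm4 by 0.02 (adjusted p = 0.824). Ppm1d, a phosphatase that switches p53 signalling off, had group ranges that all overlapped and no call, with adjusted p of 0.642 between the RIRI groups and 0.497 in normoxic RIRI over normoxic sham. Among 16 regulators of p53, 12 were tested. In normoxic RIRI over normoxic sham 5 rose, Trp53, Mdm4, the deubiquitinase Usp7 (0.34) and the ribosomal proteins Rpl5 (0.54) and Rpl11 (0.56), which bind Mdm2, and none fell. That is close to the 41.6% of all genes called higher there. Between the RIRI groups the kinases Atm (0.31), Atr (0.29) and Chek2 (0.44) were higher and Hipk2 (-0.35) lower with preconditioning, a smaller share than the 42.1% of all genes called; each call was lost without 4 to 8 of the 12 libraries.

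**Figure D4:**
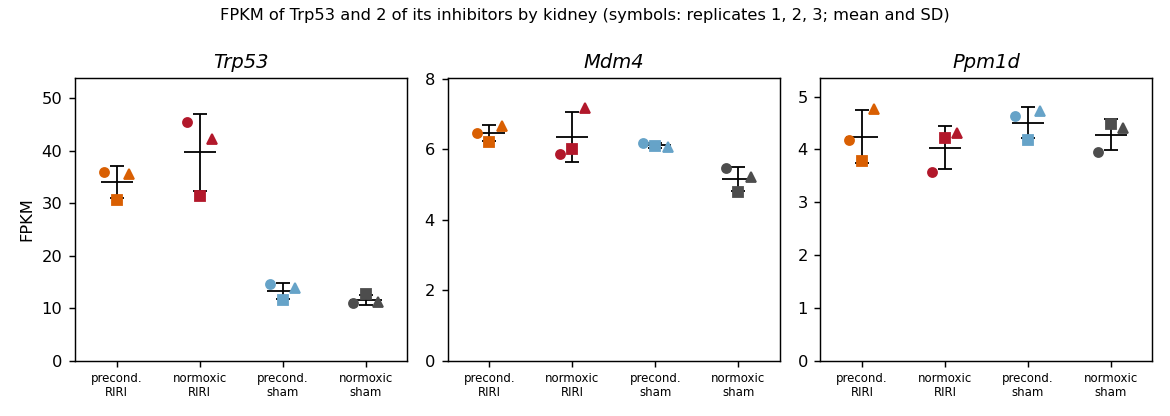
FPKM of Trp53, Mdm4 and Ppm1d in each kidney, by group (symbols, replicates 1, 2 and 3; line and bars, mean and SD, n = 3). Trp53 lies between 30.5 and 45.4 FPKM in the 6 injured kidneys and between 10.9 and 14.5 FPKM in the 6 sham kidneys, while Ppm1d overlaps across all groups.

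Other genes known as p53 targets were described as a wider list of 28, of which 27 were tested and Eda2r was too low. In normoxic RIRI over normoxic sham 15 rose and 7 fell, with a median log2 fold change of 0.41, against calls for 71.7% of all genes. In preconditioned RIRI over preconditioned sham 12 rose and 3 fell, with a median of 0.37, near the 52.4% of all genes called there. Between the RIRI groups 5 were lower with preconditioning (Sfn, Plk3, Gdf15, Apaf1 and Ier5) and 7 higher (Ak1, Dcxr, Fdxr, Xpc, Ddb2, Ei24 and Pidd1), with a median of -0.08, near the 42.1% of all genes called. Single libraries left out ended the calls of Gdf15, Apaf1 and Ddb2 in 4 of 12 cases each, of Ei24 in 3 and of Fdxr and Ier5 in 2 each. Several of these names, among them Gdf15, Apaf1, Fdxr, Xpc, Ddb2, Ei24 and Pidd1, are given only to complete the counts and were chosen after their values were seen.

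Sfn, which encodes stratifin, a protein that holds cells before mitosis, had the largest increase of the wider list in normoxic RIRI over normoxic sham. It had 86.6, 52.7 and 99.7 FPKM in preconditioned RIRI, 254, 181 and 283 in normoxic RIRI, 5.94, 6.58 and 7.64 in preconditioned sham and 4.59, 5.62 and 6.46 in normoxic sham kidneys. As with Cdkn1a, the RIRI groups were separate from each other and from the sham groups. It rose by 3.34 ± 0.22 (adjusted p = 6.3e-07) in preconditioned RIRI over preconditioned sham and by 5.18 ± 0.22 (adjusted p = 5.4e-09) in normoxic RIRI over normoxic sham. Its RIRI groups differed by -1.60 ± 0.22 (adjusted p = 0.000268) and its injury effects by -1.84 ± 0.31 (adjusted p = 0.00253).

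The stress regulator Ier5 and the exonuclease Aen rose in normoxic RIRI over normoxic sham by 1.79 ± 0.14 (adjusted p = 4.89e-07) and 1.51 ± 0.13 (adjusted p = 1.03e-06). In preconditioned against normoxic RIRI, Ier5 differed by -0.46 (adjusted p = 0.0243, lost without preconditioned RIRI replicate 2, where it was -0.29, or normoxic RIRI replicate 3) and Aen by -0.31 (adjusted p = 0.0807). The metabolic enzymes Dcxr (dicarbonyl and xylulose reductase) and Ak1 (adenylate kinase) ran the opposite way. Dcxr had 40.3, 56.1 and 48.4 FPKM in preconditioned RIRI, 31.4, 36.9 and 23.4 in normoxic RIRI, 104, 119 and 115 in preconditioned sham and 96.1, 99.5 and 92.2 in normoxic sham kidneys. It fell by 1.64 ± 0.15 (adjusted p = 1.29e-06) in normoxic RIRI against normoxic sham and was higher in preconditioned than in normoxic RIRI by 0.65 ± 0.15 (adjusted p = 0.00489); Ak1 was higher there by 0.95 ± 0.20 (adjusted p = 0.00328). Of 12 proximal tubule markers, 12 fell in normoxic RIRI against normoxic sham, where 30.1% of all genes were called lower. Between the RIRI groups 6 of the 12 markers were higher with preconditioning, against 24.7% of all genes called higher. Their summed FPKM, which follows the most abundant markers, was no higher in preconditioned RIRI (15560 to 21030) than in normoxic RIRI (18330 to 24150). Their part in the fall of Dcxr, Ak1 and Sesn1 was not tested.

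**Figure D5:**
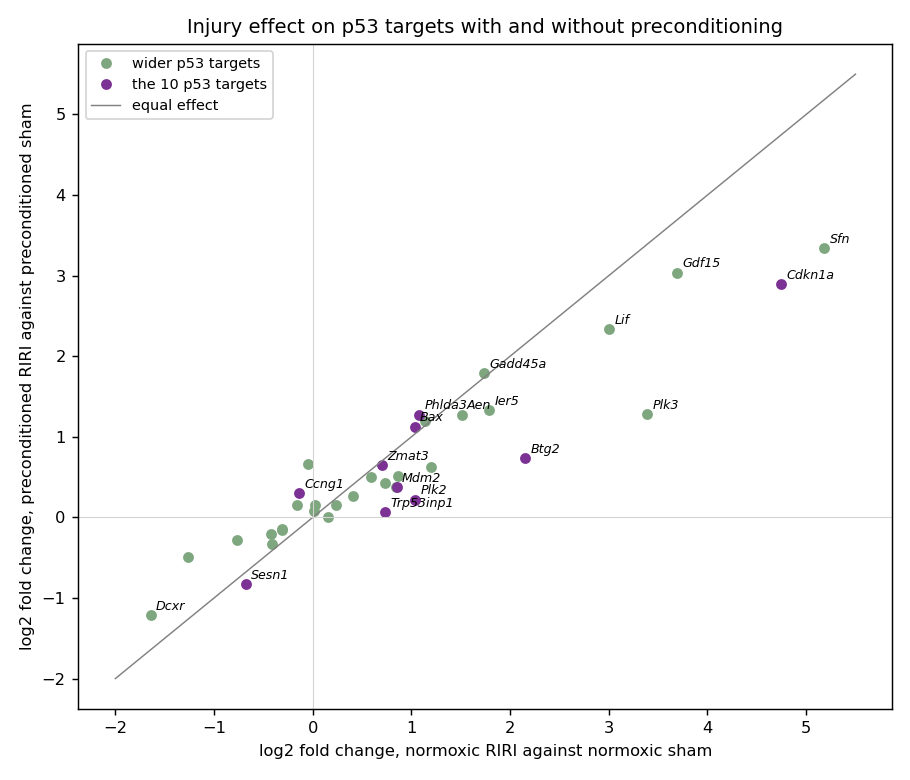
Log2 fold change of FPKM + 1 in preconditioned RIRI against preconditioned sham (vertical axis) and in normoxic RIRI against normoxic sham (horizontal axis) for the 10 p53 targets (purple) and the 27 tested genes of the wider list (green), with a line of equal effect. Sfn lies at 3.34 and 5.18 and Cdkn1a at 2.90 and 4.75, both below the line, while Bax and Phlda3 lie close to it.

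Close relatives of the members were followed to see whether a family moved together, and of 21 such paralogues 20 were tested. The polo-like kinase Plk3 changed in the same direction as Plk2, by more, in normoxic RIRI over normoxic sham and between the RIRI groups. It had 12.5, 6.77 and 15.7 FPKM in preconditioned RIRI, 51.3, 50.1 and 52.0 in normoxic RIRI, 3.57, 8.98 and 1.65 in preconditioned sham and 1.93, 3.29 and 8.76 in normoxic sham kidneys. Its high sham kidneys were those with high Btg2. Plk3 rose by 3.39 ± 0.49 (adjusted p = 5.51e-05) in normoxic RIRI over normoxic sham and was lower in preconditioned than in normoxic RIRI, at -2.11 ± 0.49 (adjusted p = 0.00508). In preconditioned RIRI over preconditioned sham, where Plk2 was not called, Plk3 was called higher (1.28). That call was lost without 8 of the 12 libraries.

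Btg1 and Btg3, antiproliferative relatives of Btg2, rose in normoxic RIRI over normoxic sham by 1.72 ± 0.18 (adjusted p = 4.66e-06) and 1.65 ± 0.10 (adjusted p = 7.19e-08). Both were lower in preconditioned than in normoxic RIRI, at -1.01 ± 0.18 (adjusted p = 0.00126) and -0.79 ± 0.10 (adjusted p = 0.000192), with a smaller SE than that of Btg2 (0.43). Their relative Tob1 fell by 0.98 (adjusted p = 0.000158) in normoxic RIRI against normoxic sham, and Tob2 differed by -0.14 (adjusted p = 0.63). Phlda1 rose in normoxic RIRI over normoxic sham by 1.97 ± 0.18 (adjusted p = 1.18e-06) and was lower in preconditioned than in normoxic RIRI, at -0.92 ± 0.18 (adjusted p = 0.00184), unlike Phlda3.

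The other kinase inhibitors of the Cdkn1a family did not follow it: Cdkn1b fell by 0.44 (adjusted p = 0.00322) in normoxic RIRI against normoxic sham and Cdkn1c differed by 0.08 (adjusted p = 0.607). Cyclin G2, Ccng2, was lower in preconditioned than in normoxic RIRI, at -0.70 ± 0.22 (adjusted p = 0.0254), the opposite direction to Ccng1, though the call was lost without 4 libraries, among them normoxic RIRI replicate 2 (-0.45, adjusted p = 0.0967). Sesn2 differed by -0.05 (adjusted p = 0.871) and Sesn3 by 0.12 (adjusted p = 0.128) in normoxic RIRI over normoxic sham, where Sesn1 fell. In preconditioned RIRI over preconditioned sham, where Sesn1 also fell, Sesn2 was called higher (0.66). That call was lost without 3 of the 12 libraries and under median-ratio and quantile scaling. Trp53inp2 fell by 0.90 (adjusted p = 3.75e-05) in normoxic RIRI against normoxic sham, where Trp53inp1 rose. Of the Zmat genes, Zmat5 was higher in preconditioned than in normoxic RIRI by 0.72 ± 0.11 (adjusted p = 0.000637) and Zmat2 differed by 0.18 (adjusted p = 0.0622). Zmat1 was higher there by 0.43 (adjusted p = 0.0298), at under 2 FPKM in every kidney, and 5 libraries each ended that call when left out. Smaller increases in normoxic RIRI over normoxic sham were called for Plk4 (0.50), Phlda2 (0.49) and Bok (0.36), and Plk1 was too low to be tested. The call of Phlda2 was lost without normoxic RIRI replicate 1 (0.30, adjusted p = 0.0619), that of Bok without normoxic RIRI replicate 3 or normoxic sham replicate 1 (adjusted p of 0.0584 to 0.0777), and both under quantile normalization.

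Bax acts together with other members of the BCL2 family, and 11 of 14 listed were tested. In normoxic RIRI over normoxic sham 6 rose and 2 fell, near the 71.7% of all genes called; the 2 that fell, Bid and Bik, were named after their values were seen, and lost the call without 8 and 3 of the 12 libraries. Bak1, the other pore-forming protein, had 24.7, 22.1 and 23.2 FPKM in preconditioned RIRI, 37.9, 27.4 and 28.6 in normoxic RIRI, 9.08, 10.3 and 10.3 in preconditioned sham and 7.12, 9.01 and 8.55 in normoxic sham kidneys. It rose by 1.80 ± 0.12 (adjusted p = 1.15e-07) in normoxic RIRI over normoxic sham and was lower in preconditioned than in normoxic RIRI, at -0.39 ± 0.12 (adjusted p = 0.0208), a call lost without preconditioned RIRI replicate 2 (adjusted p = 0.0699) or normoxic RIRI replicate 1 (-0.25, adjusted p = 0.0598). The pro-survival genes Bcl2l1 and Mcl1 rose in normoxic RIRI over normoxic sham by 1.83 ± 0.14 (adjusted p = 2.77e-07) and 1.31 ± 0.12 (adjusted p = 1.62e-06). In preconditioned RIRI they were lower than in normoxic RIRI, at -0.90 ± 0.14 (adjusted p = 0.000475) and -0.51 ± 0.12 (adjusted p = 0.00663). Bmf was also lower there, at -0.94 ± 0.28 (adjusted p = 0.0193), a call lost without 4 of the 12 libraries. Of the 11 genes 4 were lower in that comparison and 0 higher, against 17.4% and 24.7% of all genes. In preconditioned RIRI over preconditioned sham 3 rose, Bak1 (1.16), Bcl2l1 (0.85) and Mcl1 (0.78), and 0 fell, where 33% of all genes were called higher. Pmaip1, the p53-responsive sensitizer Noxa, rose by 0.84 ± 0.18 (adjusted p = 0.00118) in normoxic RIRI over normoxic sham. Genes on both sides of the family were thus higher in normoxic RIRI kidneys. Of 16 cell cycle genes 5 were tested. In normoxic RIRI over normoxic sham 2 rose and 0 fell, near the 41.6% of all genes called higher. Pcna, the replication clamp and a p53-responsive gene, rose by 0.96 (adjusted p = 1.57e-06). Mcm2 rose by 0.55 (adjusted p = 0.0447), a call lost without 7 of the 12 libraries. In preconditioned RIRI over preconditioned sham 3 rose, among them Mcm2 (1.03) and Pcna (0.74), where 33% of all genes were called higher. Between the RIRI groups 0 were called.

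Marker RNAs of neutrophils and of tubular injury also differed between the groups. All 7 tested of 8 neutrophil markers rose in normoxic RIRI over normoxic sham, where 41.6% of all genes were called higher. In preconditioned against normoxic RIRI, where 17.4% of all genes were called lower, all 7 markers were lower. Their summed FPKM was 111, 23.6 and 46.6 in preconditioned RIRI, 132, 293 and 206 in normoxic RIRI, 4.39, 3.34 and 1.73 in preconditioned sham, where Ly6g was at 0, and 2.26, 5.51 and 15.1 in normoxic sham kidneys. Normoxic RIRI replicate 2, with the highest sum, also had the highest Cdkn1a, Btg2, Trp53inp1, Plk2, Mdm2 and Sesn1 of its group. It had the lowest Bax, Phlda3 and Ccng1. Preconditioned RIRI replicate 1, with the highest sum of its group, was the highest of its group for 1 member, Plk2, and the lowest for 4. The summed FPKM of 10 tubular injury markers was 8696 to 10030 in preconditioned RIRI, 13390 to 16900 in normoxic RIRI, 722 to 848 in preconditioned sham and 591 to 619 in normoxic sham kidneys. The part of either in the results for the 10 members was not tested.

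Among 8400 genes with a mean of at least 5 FPKM in a group, those whose log2(FPKM + 1) followed Cdkn1a most closely over the 12 libraries were the adaptor gene Shc1 (Pearson r = 0.996), Zfp639 (0.996) and Efhd2 (0.995). Efhd2 averaged 46.9 ± 12.5 FPKM in preconditioned RIRI, 127 ± 27.2 in normoxic RIRI, 11.6 ± 0.33 in preconditioned sham and 11.2 ± 0.42 in normoxic sham kidneys (SD, n = 3). For Mdm2 they were Med7 (0.992), Eif1 (0.984) and Brd2 (0.983). The libraries share the same 4 groups, so such values describe a shared ordering of groups, and no test was made of them.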

How the data were processed

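Per the labels, TRIzol RNA of 12 kidneys was made into VAHTS Universal V10 libraries for a DNBSEQ-T7 sequencer, all labelled batch 1. The authors deposited FPKM per gene symbol. Per the submitters' processing notes, mm10, HTSeq and DESeq2 were used, and how reads were aligned is not given in the sources used. FPKM removes depth and gene length but not composition.

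The members and all gene lists were chosen with earlier results of these data known. limma 3.58.1 (R 4.3.3) with a mean-variance trend was fitted to log2(FPKM + 1) of the 12357 genes at FPKM 1 or more in 3 or more of 12 libraries, as 4 group means, and adjusted by Benjamini-Hochberg over all genes. A pseudocount of 1 understates changes of low genes. Whole reads were recovered from FPKM steps for 25535 of 25553 genes (tolerance 0.001), totals 32900491 to 35473156. They were used only for limma voom, the read ranges of the members and the check for duplicate libraries. A gene seen in few libraries may be recovered as a fraction of its reads. Of 66 library pairs none was a duplicate (lowest chi-square per gene 9.91). The labels name separate mice but not how they were bred, so p-values measure the spread between these samples.

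Named were all 10 members, Trp53, Mdm4, Ppm1d, the members' paralogues, up to 4 called genes of each other list with the smallest adjusted p in normoxic RIRI over normoxic sham and up to 4 in preconditioned over normoxic RIRI, and the 3 genes most correlated with Cdkn1a and with Mdm2. Alternatives were median-ratio and quantile scaling, filtering at FPKM 5 or not at all, adding 0.1 in place of 1, only the groups compared, no trend, a replicate block, a minimum log2 fold change of 1, voom on recovered reads, and each library left out. The scripts were tested on simulated data. Promoter sequences are from RefSeq (GRCm38, mm10).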

Additional observations from a re-analysis of the deposited data

Results flagged for a closer look

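The injury effect differed between preconditioned and normoxic mice for 3 of 10 members, 2 of 27 wider p53 targets, 5 of 20 paralogues and 3 of 11 BCL2 family genes tested, with genes on more than 1 list counted in each, by the interaction term of limma. That term was called for 23.9% of all genes and is given as the effect in preconditioned minus that in normoxic mice. Among the members these were Cdkn1a (-1.85, adjusted p = 0.00679), Plk2 (-0.82, adjusted p = 0.0101) and Mdm2 (-0.47, adjusted p = 0.0452). Among other p53 targets and relatives of the members they were Sfn (-1.84, adjusted p = 0.00253), Btg3 (-0.71, adjusted p = 0.00622), Btg1 (-1.05, adjusted p = 0.0137), Bak1 (-0.64, adjusted p = 0.0198), Plk3 (-2.11, adjusted p = 0.0446) and Zmat5 (0.52, adjusted p = 0.0366). In the BCL2 family they were Bcl2l1 (-0.99, adjusted p = 0.00519) and Mcl1 (-0.54, adjusted p = 0.043). The effect was smaller in size in preconditioned mice for each of these genes. For Zmat5 it was negative in normoxic mice (-0.44) and 0.09 in preconditioned mice, where it was not called (adjusted p = 0.55). Leaving out single libraries ended the call of Mdm2 in 10 of 12 cases, of Plk3 in 9, of Zmat5 and Mcl1 in 8 each and of Bak1 in 1 (normoxic sham replicate 1, adjusted p = 0.0505). With no filter on low genes Mdm2, Plk3, Zmat5 and Mcl1 were not called. Quantile normalization ended the calls of Mdm2, Plk3 and Mcl1, median-ratio rescaling that of Mcl1, a pseudocount of 0.1 those of Mdm2 and Plk3, and the replicate block that of Plk3.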

How the results depend on the processing

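The 9 members called in normoxic RIRI over normoxic sham were 8 to 9 when single libraries were left out, the 6 in preconditioned over normoxic RIRI 5 to 7, the 7 in preconditioned RIRI over preconditioned sham 5 to 7, the 0 between the sham groups 0, and the 3 of the difference of injury effects 2 to 5. A minimum log2 fold change of 1 left 5, 2, 3 and 1 of those called in normoxic RIRI over normoxic sham, preconditioned over normoxic RIRI, preconditioned RIRI over preconditioned sham and the difference of effects. Voom on recovered reads gave 9, 6, 7, 0 and 3. Replicate numbers did not pair the mice (18 correlations of same-numbered deviations, -0.248 to 0.165, 4 over 0.1); the replicate block gave 9, 6, 6, 0 and 3, and the member call it ended was Ccng1 in preconditioned RIRI over preconditioned sham (0.30, adjusted p = 0.0613). A fit of only the groups compared was not run for the difference of effects.

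Of 1090 alternative values of members, 998 kept direction and call, 47 lost the call, 8 gained it and 37 changed sign, none of a called value. In preconditioned over normoxic RIRI, Sesn1 became -0.04 under median-ratio rescaling and -0.049 under quantile normalization, and Trp53inp1 in preconditioned RIRI over preconditioned sham -0.011 and -0.033. Between preconditioned and normoxic sham, median-ratio rescaling gave Mdm2 -0.073, Phlda3 -0.047 and Bax -0.058, and quantile normalization Cdkn1a -0.007, Mdm2 -0.084, Phlda3 -0.055 and Bax -0.026. With single libraries left out, values in preconditioned over normoxic RIRI ran from -0.02 to 0.45 for Phlda3, -0.10 to 0.31 for Bax, -0.10 to 0.19 for Sesn1 and -0.22 to 0.022 for Zmat3, and for Trp53inp1 in preconditioned RIRI over preconditioned sham from -0.01 to 0.21. Between the sham groups they ran from -0.075 to 0.19 for Cdkn1a, -0.071 to 0.096 for Mdm2, -0.091 to 0.056 for Ccng1, -0.026 to 0.087 for Phlda3 and -0.25 to 0.51 for Btg2. For the difference of effects they ran from -0.047 to 0.43 for Phlda3, -0.13 to 0.28 for Bax, -0.28 to 0.002 for Sesn1 and -0.15 to 0.093 for Zmat3. The cause was not tested. Of 2997 values of 64 other genes, 2673 kept their call, 324 lost it and 0 changed sign. Over all genes, 52 were called between the sham groups, against 303 with only those groups fitted, 31 with a pseudocount of 0.1 and 23 to 80 with single libraries left out, and 5203 between the RIRI groups, against 3373 with only those groups fitted. With 3 mice a group, small differences such as those between the sham groups cannot be resolved.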
